A study of Mus musculus with 435 samples.

Results

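The genes described here encode molecular chaperones and folding enzymes. They are the genes whose symbol in the array's gene table starts with Dnaj, Hsp, Cct followed by a digit, Pdia, Ppi followed by a letter from a to h, or Fkbp, without Fkbp11, and whose probe was measured on at least 150 arrays. This gave 82 genes of 10907 with a probe measured on that many arrays, and of 13409 named on the array. By lists of where the proteins are known to work, 18 probes of 17 genes were assigned to the endoplasmic reticulum (ER) and 7 probes of 6 genes to the mitochondrion. A further 2 probes, 1 each of Hspa12a and Hspbap1, were set apart. All others, 76 probes of 57 genes, were called cytosolic and nuclear by default, so this class may hold members that work elsewhere. The stress-inducible Hsp70 gene Hspa1a alone had 16 spots. Just inside the limit lay Fkbp5, measured on 150 arrays, and a Dnajc1 probe, measured on 162. Just outside lay Hspa1b (149 arrays), a Dnaja2 probe (145), a further Hspa1a spot (139), Dnajc15 (132) and Dnajc3 (124).

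The arrays were spotted 2-colour arrays of mouse liver, 217 from C57 and 218 from A/J mice, both inbred strains. Within each strain the diet was labelled high-fat or low-fat. The labels give 44 groups by strain, diet and week (week 0, week 1 and weeks 3 to 11), each of 8 to 10 arrays. The 4 arms were thus C57 high-fat, C57 low-fat, A/J high-fat and A/J low-fat, and diet labels are given at week 0 too. Age and sex are not given in the sources used here, nor which arrays share a mouse, so p-values measure the spread between weeks or between arrays, which may be partly technical. Liver RNA was labelled with Cy5 and hybridised against Cy3-labelled RNA pooled from several C57 tissues, among them liver. A value is therefore a log2 ratio of liver over that pool, centred on the array's median, and says nothing of absolute abundance.

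Newly made proteins fold with the help of chaperones, which hold unfolded chains and release them in cycles driven by ATP. In the cytosol, Hsp70 proteins such as Hspa8 take up chains with the help of J-domain partners of the Dnaj family, Hsp90 proteins act on later steps, and the ring-shaped CCT complex folds actin and tubulin. In the ER, Hspa5 (BiP) and its J-domain partners act with the Hsp90 family member Hsp90b1 and with protein disulfide isomerases of the Pdia family. Cyclophilins (Ppi genes) and FK506-binding proteins (Fkbp genes) are prolyl isomerases of several compartments. The hepatocyte secretes most plasma proteins and carries a large ER. When unfolded proteins collect there, the unfolded protein response raises Hspa5, Hsp90b1 and Dnajb9, while the heat shock response raises Hspa1a and Hsph1 when they collect in the cytosol.

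The promoters of 4 ER genes are shown, 3 that hold a match to an element through which that response is known to act, and Dnajb9, which holds none and had the largest strain difference of the ER genes called. Sequences are those of RefSeq on assembly GRCm38.p6, which held an entry for 67 of the 82 genes. Each is the 250 bases before the annotated start, 5′ to 3′ on the gene's strand. Capitals mark a match to the ER stress response element, searched on both strands as CCAAT and CCACG with any 9 bases between them.
Hspa5 (chr2:34771840-34772089, plus strand): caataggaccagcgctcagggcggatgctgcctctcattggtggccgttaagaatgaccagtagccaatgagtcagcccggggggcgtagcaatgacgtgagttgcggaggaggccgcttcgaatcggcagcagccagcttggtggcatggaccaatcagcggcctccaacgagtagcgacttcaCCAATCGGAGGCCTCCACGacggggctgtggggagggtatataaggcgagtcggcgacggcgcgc
Hsp90b1 (chr10:86705445-86705694, minus strand): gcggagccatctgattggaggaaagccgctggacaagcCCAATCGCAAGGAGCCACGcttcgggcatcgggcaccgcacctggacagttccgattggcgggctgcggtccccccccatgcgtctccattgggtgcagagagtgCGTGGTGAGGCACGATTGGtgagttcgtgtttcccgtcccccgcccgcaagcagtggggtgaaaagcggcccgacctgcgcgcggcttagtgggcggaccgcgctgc
Pdia6 (chr12:17266339-17266588, plus strand): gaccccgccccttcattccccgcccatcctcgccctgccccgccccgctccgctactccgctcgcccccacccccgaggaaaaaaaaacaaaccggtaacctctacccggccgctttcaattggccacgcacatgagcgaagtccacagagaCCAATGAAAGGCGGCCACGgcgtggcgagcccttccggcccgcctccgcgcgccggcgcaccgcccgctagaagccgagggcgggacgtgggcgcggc
Dnajb9 (chr12:44210069-44210318, minus strand), which had no match: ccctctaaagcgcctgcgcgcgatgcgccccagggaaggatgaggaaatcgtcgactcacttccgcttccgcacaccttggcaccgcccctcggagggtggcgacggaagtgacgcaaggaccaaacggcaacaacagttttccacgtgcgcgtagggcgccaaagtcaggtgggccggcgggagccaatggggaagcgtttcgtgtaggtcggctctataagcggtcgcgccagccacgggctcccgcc
The search window ran from 250 bases before to 50 bases after the start. This element occurred in 39 of 32851 mouse promoter entries (0.119%), and among the folding genes in those of Hspa5, Hsp90b1 (2 matches) and Pdia6. A shorter form, ATTGG and CCACG with any 1 base between them, which shares CCACG and the complement of CCAAT with the first, occurred in 12 entries (0.0365%), among them Dnajb11, where ATTGGCCCACG lay just after the start. The motif TGACGTGG was in 222 entries (0.676%) and in 0 folding genes. The heat shock element, searched as GAA, TTC and GAA with any 2 bases between neighbours, was in 198 entries (0.603%), among them Dnajb6, Hspd1 and Hsph1. A match is a description of the letters in this window only.

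Values below come from 9 weeks (1, 3 to 7 and 9 to 11). Week 8, in which 28 arrays did not resemble the others, and 4 further such arrays were left out, which leaves 350 arrays in 36 groups. The weekly mean of a group is the unit of the comparisons over weeks. Of the folding probes 57 (of 49 genes) were measured on enough arrays of every group to be tested among 7643 probes, namely 44 cytosolic, 8 ER, 4 mitochondrial and 1 set apart. With a looser filter all folding probes but Ppic and 1 Hspa1a spot were tested, among 13128 probes. The liver label held against marker genes. Of 9 measured hepatocyte genes 7 lay above the array median, with a median log2 ratio of 1.11. All 4 measured skeletal muscle genes lay below it, with a median of -1.92. The mean hepatocyte level differed little between arms, at 0.99 in C57 high-fat, 0.91 in C57 low-fat, 0.89 in A/J high-fat and 0.98 in A/J low-fat. Number of measured probes and spread of the log2 ratios also moved with the week. The median number of measured probes ran from 8172 at week 6 to 13366 at week 9, and the median spread per array from 0.537 at week 3 to 0.925 at week 11.

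Among the comparisons between groups, strain gave the most calls in the folding genes. In the ER, Hspa5 and its J-domain partner Dnajb9 were higher in C57 than in A/J, and Dnajc10, a J-domain disulfide reductase, was lower. In the cytosol 6 probes were higher in C57 and none was lower. No member of the Cct symbols or the prolyl isomerases was called, but few were tested, and Ppia and Cct3 passed under some other settings. Of the 57 probes tested, 9 passed an adjusted p of 0.05 (limma, Benjamini-Hochberg over all probes tested), 8 higher and 1 lower in C57. This stands against 7.84% of all probes, 4.76% higher and 3.07% lower. The median difference was 0.03 over the 57 probes and 0.00 over all probes. Weekly means of the strains overlapped for all 57 probes, and failed to overlap for 17 of all 7643 (0.222%). On the high-fat diet alone 3 probes passed (Dnajb4, Dnajb9 and Dnajc10), against 3.94% of all probes, and on the low-fat diet alone 1 (Dnajc10), against 2.39%. In bulk liver, fewer cells of a type and less RNA per cell cannot be told apart.

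Dnajb9 (ERdj4), which binds Hspa5 and is among the genes raised in the unfolded protein response, had weekly means from -0.79 through a median of -0.40 to -0.11 in C57, against -1.58, -0.73 and -0.25 in A/J. C57 lay above A/J in 9 of 9 weeks, by the widest margin at weeks 1, 4 and 11. The mean was -0.42 ± 0.23 in C57 and -0.85 ± 0.43 in A/J (SD, 9 weeks), a difference of 0.43 (SE 0.09) or 1.35-fold, with an adjusted p of 0.0025 in limma. The difference was 0.62 on the high-fat diet (adjusted p = 0.0039) and 0.24 on the low-fat diet (adjusted p = 0.50), a gap of 0.38 between diets that did not pass (SE 0.19, unadjusted p = 0.054, adjusted p = 1.00). Dropping any single week left the adjusted p of the averaged difference at or below 0.0122.

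Hspa5, the main Hsp70 of the ER, had the lowest level of the ER genes in liver relative to the pool. Its weekly means ran from -1.36 through -0.82 to -0.39 in C57, against -1.83, -1.20 and -0.69 in A/J. C57 was higher in 9 of 9 weeks, although the ranges overlap. The means were -0.86 ± 0.28 in C57 and -1.24 ± 0.37 in A/J (SD, 9 weeks), a difference of 0.38 (SE 0.11), 1.30-fold, adjusted p = 0.019 in limma. Leaving out week 3, 7 or 11 ended the call, the adjusted p then reaching 0.0855. On the high-fat diet the difference was 0.48 (adjusted p = 0.074), and on the low-fat diet 0.29 (adjusted p = 0.46).

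Dnajc10 (ERdj5), which reduces disulfide bonds of misfolded proteins before their removal from the ER, ran the other way. Its weekly means were -0.73 to -0.16 with a median of -0.33 in C57, against -0.28 to 0.22 with a median of -0.01 in A/J. C57 was lower in 9 of 9 weeks. The difference of -0.31 (SE 0.05), or 1.24-fold lower in C57, had an adjusted p of 8.23e-05 in limma and passed whichever week was dropped. It passed on each diet alone, at -0.36 on high-fat (adjusted p = 0.0021) and -0.26 on low-fat (adjusted p = 0.0497).

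**Figure D1:**
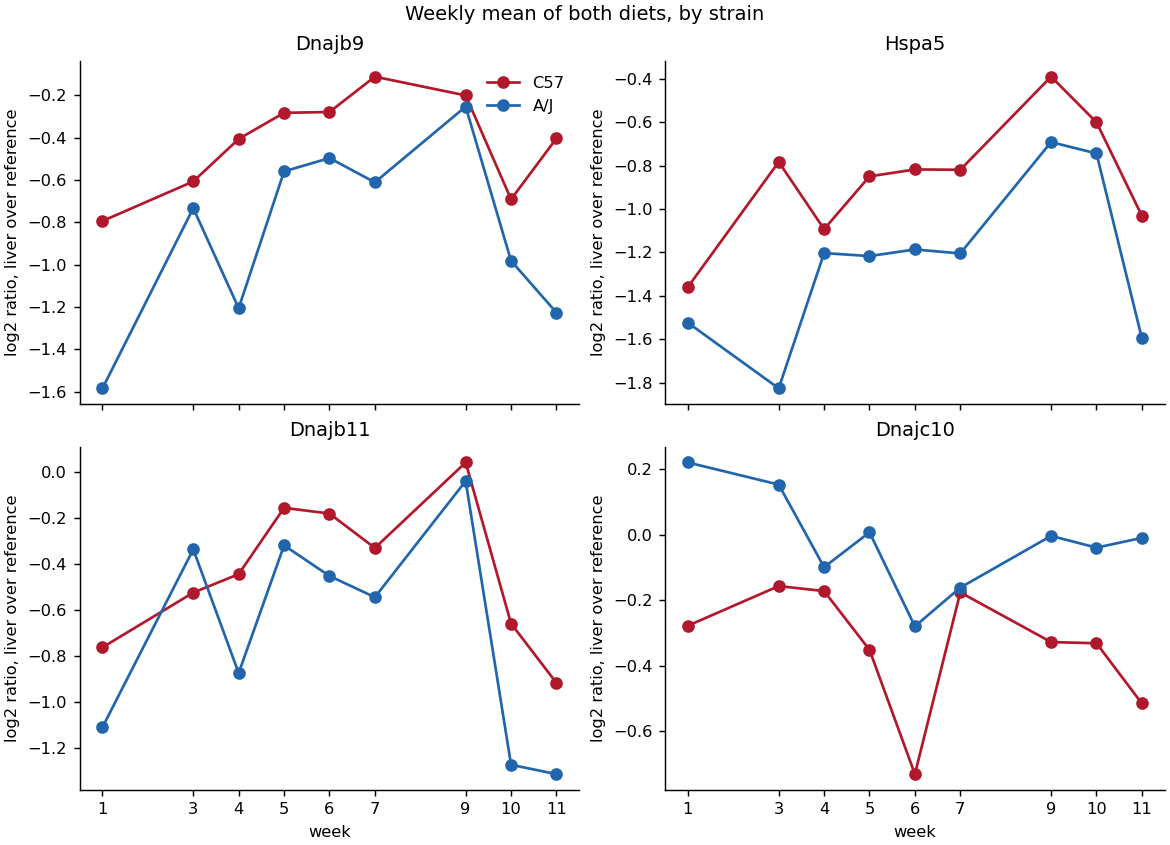
Weekly mean log2 ratio of liver over the pooled reference for Dnajb9, Hspa5, Dnajb11 and Dnajc10, against week, with both diets averaged (C57 red, A/J blue). Dnajb9 and Hspa5 lay higher in C57 in all 9 weeks and Dnajc10 lower in all 9, with overlapping ranges across weeks.

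The other ER members did not pass. Hsp90b1 (GRP94), which folds a limited set of secreted and membrane proteins, had weekly means from -0.97 through -0.21 to 0.04 in C57, against -1.12, -0.54 and 0.53 in A/J, a difference of -0.03 (adjusted p = 0.91). Pdia6, a disulfide isomerase, differed by 0.06 (adjusted p = 0.47) and the prolyl isomerase Fkbp2 by -0.04. Dnajb11 (ERdj3), a further Hspa5 partner, was tested under the looser filter only. It had weekly means from -0.92 through -0.44 to 0.04 in C57, against -1.31, -0.54 and -0.04 in A/J, and was higher in C57 in 8 of 9 weeks by 0.26 (SE 0.08, adjusted p = 0.049). In that fit Pdia3 differed by 0.03, Pdia4 by -0.16 and Ppib by 0.04, and none of these passed. Set against the promoter letters above, the 4 genes with a match to the ER stress elements had strain differences of 0.38 (Hspa5), 0.26 (Dnajb11), 0.06 (Pdia6) and -0.03 (Hsp90b1).

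The wider ER machinery was read from a list of 30 genes outside the family symbols, of which 14 were tested. Of these 1 was higher in C57 and none was lower, near the 7.84% called (4.76% higher) among all probes. The 1 called was Sec61a1, the pore subunit of the ER translocon, with a difference of 0.28 (adjusted p = 0.027). The glucosidase subunit gene Prkcsh differed by 0.28 (adjusted p = 0.083), the lectin chaperone Calr by 0.16, the transcription factor Xbp1 of the unfolded protein response by -0.15 and Ddit3 (CHOP), the death-associated factor of that response, by 0.05, and these did not pass. Among the hepatocyte markers 5 of 9 differed between strains, with Ahsg (0.46), Fgb (0.36) and Tdo2 (0.29) higher in C57 and Trf (-0.46) and Alb (-0.36) lower. None of the 2 macrophage and 2 matrix genes tested did, and of 4 muscle genes 1 did (Tnnc2, -0.28). The part of cell makeup in the strain differences was not tested.

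Among the cytosolic genes, 3 of the calls were J-domain proteins of different known roles and 1 more came from 1 of a pair of probes. Dnaja2, a J-domain partner of the constitutive Hsp70 Hspa8, had weekly means from 0.41 through 0.74 to 1.10 in C57, against 0.11, 0.38 and 0.99 in A/J. It was higher in C57 in 9 of 9 weeks, by 0.20 (SE 0.05, adjusted p = 0.0086). Dnajc24, which works in the synthesis of the modified residue diphthamide rather than in folding, was also higher in 9 of 9 weeks. Its weekly means ran from -0.56 through -0.37 to 0.17 in C57, against -1.19, -0.69 and 0.08 in A/J, a difference of 0.26 (SE 0.07, adjusted p = 0.011). It was lost on dropping week 7 or 11 (adjusted p up to 0.0703), and with group medians, where the difference was 0.17 (adjusted p = 0.18), all 10 weeks (0.19, adjusted p = 0.33) or weeks 1 to 5 alone (0.13, adjusted p = 0.70). Dnajc12, known as a partner of the aromatic amino acid hydroxylases, among them the phenylalanine hydroxylase of liver, had weekly means from -0.22 through 0.35 to 0.69 in C57, against -0.52, -0.00 and 0.48 in A/J. It was higher by 0.31 (SE 0.09, adjusted p = 0.025) in 8 of 9 weeks. Dropping week 3, 5, 6, 10 or 11 ended that call (adjusted p up to 0.133).

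Dnajb4, another J-domain partner of Hsp70, was read by a pair of probes that did not match. On probe 2079 the weekly means ran from 0.28 through 0.61 to 0.93 in C57, against -0.03, 0.30 and 0.75 in A/J, a difference of 0.25 (SE 0.06, adjusted p = 0.011) with C57 higher in 7 of 9 weeks. On probe 8602 the difference was 0.06 (adjusted p = 0.53). Over the 36 groups, with arm means removed, the probes correlated at -0.0827. The probe 2079 call was lost without week 3 (adjusted p = 0.0586).

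Hspb8, a small heat shock protein that acts with Bag3 in the removal of misfolded proteins, had weekly means from -0.35 through 0.03 to 0.23 in C57, against -0.71, -0.26 and 0.22 in A/J. It was higher in C57 by 0.23 (SE 0.07, adjusted p = 0.046) in 7 of 9 weeks, and passed in only 2 of the 9 fits that drop a week (adjusted p up to 0.205 over weeks 1, 3, 5, 6, 7, 9 and 11). Its partner Bag3 differed by 0.05 and did not pass.

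Hspa1a, the heat-inducible cytosolic Hsp70, gave 1 call on 5 tested spots. Spot 9463 had weekly means from -1.35 through -0.59 to -0.14 in C57, against -2.26, -1.07 and -0.39 in A/J, a difference of 0.38 (SE 0.12, adjusted p = 0.035) with C57 higher in 7 of 9 weeks. This call was lost without week 1, 3, 5, 9 or 10 (adjusted p up to 0.147). Without week 6, and with single arrays as replicates, further spots passed beside it. With the replicate block another spot passed in its place. The other tested spots differed by 0.03, 0.17, 0.27 and 0.31 over the 9 weeks, and none passed in the main test. Under the looser filter 14 of 15 spots were positive, with a median of 0.19. The mean of the 5 tested spots differed by 0.21 (adjusted p = 0.13), and that of all 16 spots by 0.21 (adjusted p = 0.17). Hspa1a is nearly identical in sequence to Hspa1b, so that a spot may read both. The spots correlated with each other at a median of 0.564 (lowest -0.354, highest 0.919) over the groups.

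Other classes of folding genes had no call, on few probes each. None of 5 probes with a Cct symbol, 8 of prolyl isomerases of any compartment and 4 of mitochondrial members passed. With 7.84% of all probes called, 0 calls on so few do not set these classes apart. Of 24 Dnaj probes 6 passed (5 higher, 1 lower). Cct3 differed by 0.25 (adjusted p = 0.081) and Ppia (cyclophilin A) by 0.23 (adjusted p = 0.10). Ppia did pass under quantile normalization, with group medians and without week 1, and both passed with single arrays as replicates. Hspa8, Hsph1 and Dnajb1 differed by -0.04, 0.06 and 0.02. With the looser filter Hsp90aa1, the inducible cytosolic Hsp90, differed by 0.25 (adjusted p = 0.41), Dnaja1 by 0.15 (adjusted p = 0.28), the mitochondrial chaperonin Hspd1 by 0.22 and the mitochondrial cyclophilin Ppif by -0.35 (adjusted p = 0.26). From a list of 29 cytosolic co-chaperones and heat shock factors, 9 were tested and 2 passed, both lower in C57, against 3.07% lower among all probes. These were Tcp1, the CCT subunit whose symbol lies outside the family rule, at -0.26 (adjusted p = 0.018), and Trap1, the mitochondrial Hsp90, at -0.39 (adjusted p = 0.00046). Under the looser filter 7 folding probes passed, 6 higher and 1 lower, against 4.2% of all probes, and these were Dnaja2, Dnajb4, Dnajb9, Dnajb11, Dnajc10, Dnajc24 and Hspa5.

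**Figure D2:**
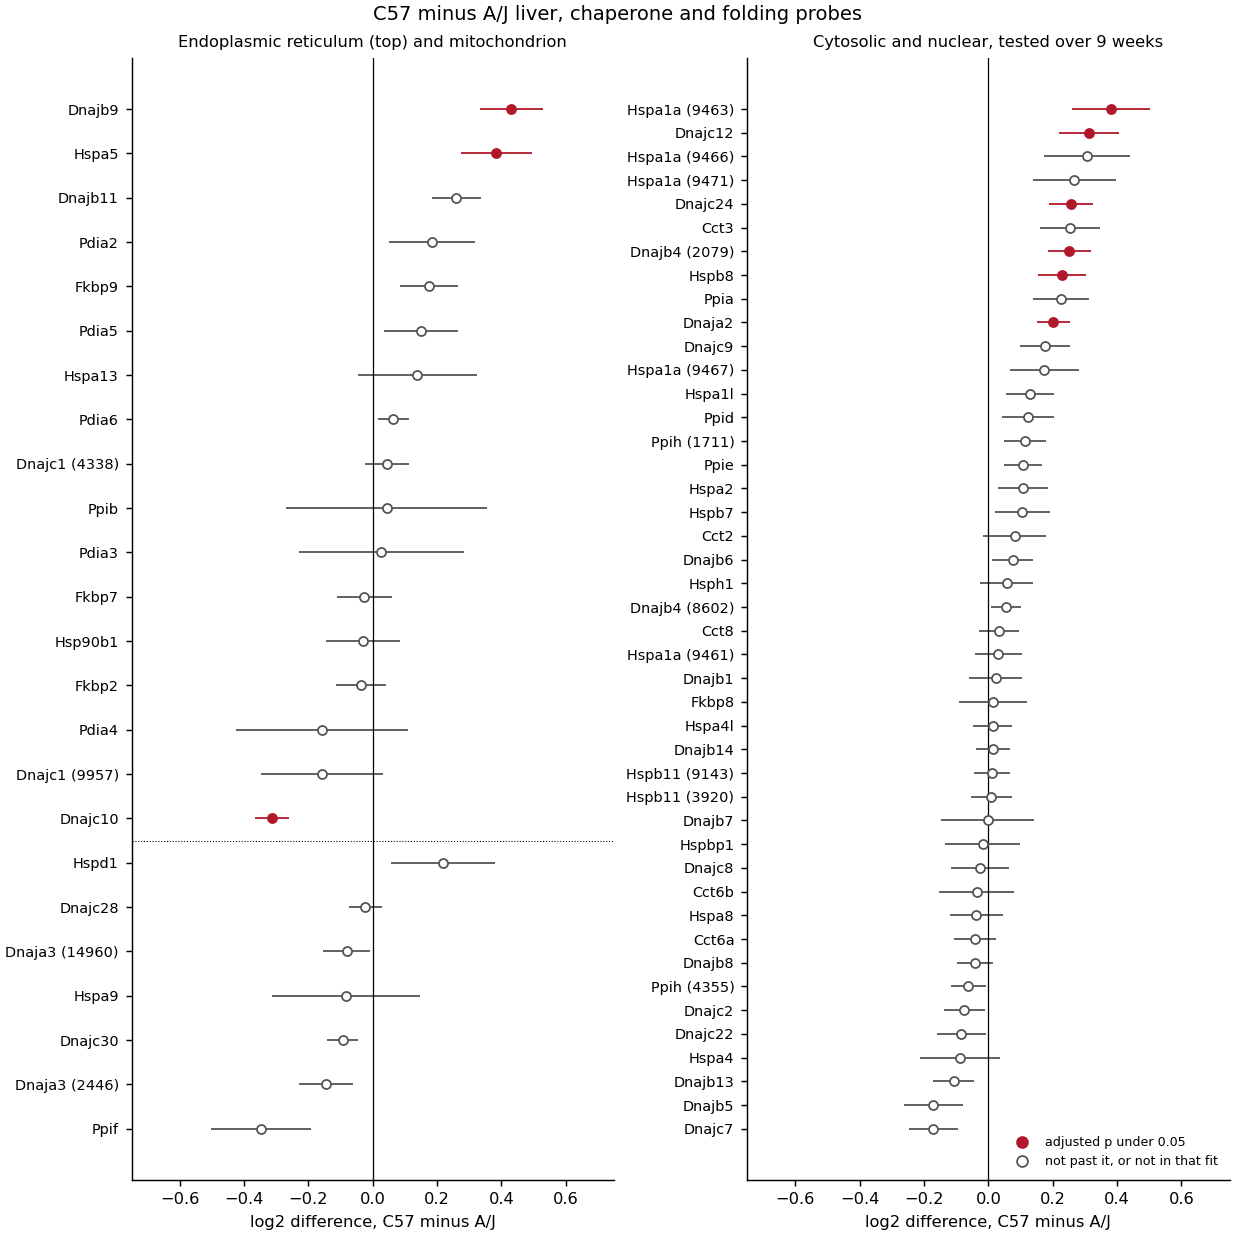
Strain difference on the log2 scale (C57 minus A/J, point) with its standard error (bar) for the ER and mitochondrial probes (left, all probes of the looser filter) and the cytosolic and nuclear probes (right). Red points passed an adjusted p of 0.05. Dnajb9 (0.43) and Hspa5 (0.38) stand to the right of 0 in the ER panel and Dnajc10 (-0.31) to the left.

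Week 0 was not used above and was fitted on its own, with 39 arrays and 5414 probes. Of the 40 folding probes tested at week 0, none passed in limma, against 1.4% of all probes. An unadjusted p under 0.05 was reached by 2 of the 40 (Cct3 at 0.46 and Hspa1l at 0.70) and by 682 of all 5414. Of the 9 probes called over the later weeks 6 were tested, and 4 had the same sign. Of these, Dnajb4 probe 2079 was near 0 at 0.02, and at -0.01 with consecutive arrays averaged. Hspb8 stood at -0.004, against 0.23 over the later weeks. Dnajb9 averaged -0.84 ± 0.77 (SD, n = 8) in C57 high-fat and -1.14 ± 0.41 (n = 7) in C57 low-fat, against -1.70 ± 0.43 (n = 6) in A/J high-fat and -1.11 ± 0.37 (n = 5) in A/J low-fat. The strain difference of Dnajb9 was 0.42 (SE 0.21, adjusted p = 0.40), close in size to that of the later weeks but not past the threshold. Hspa5 differed by 0.48 (SE 0.33, adjusted p = 0.58) and Dnajc10 by -0.12 (adjusted p = 0.81). Dnaja2 had the opposite sign at week 0, at -0.20 (adjusted p = 0.45).

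Few folding genes differed by diet. Averaged over strains, only Dnaja2 was higher on the high-fat diet, and no probe was lower. This was 1 of 57, against 0.419% of all probes (0.301% higher). Dnaja2 had weekly means from 0.34 through 0.65 to 1.07 on high-fat, against 0.23, 0.32 and 1.01 on low-fat, higher on high-fat in 9 of 9 weeks. The difference was 0.24 (SE 0.05), 1.18-fold, with an adjusted p of 0.017 in limma. By arm its mean was 0.81 ± 0.25 in C57 high-fat and 0.56 ± 0.27 in C57 low-fat, and 0.60 ± 0.29 in A/J high-fat and 0.37 ± 0.30 in A/J low-fat (SD, 9 weeks). High-fat lay above low-fat in 16 of 18 pairs of groups of a strain and week, by 0.25 in C57 (adjusted p = 0.23) and 0.23 in A/J (adjusted p = 0.70). The averaged call was lost on leaving out week 1, 5, 7, 9 or 10 (adjusted p up to 0.11). At week 0, where 0 of 40 folding probes and 0 of all 5414 passed for diet in limma, Dnaja2 differed by 0.27 (SE 0.11, unadjusted p = 0.017, adjusted p = 0.51), with means of 0.24 in C57 high-fat and 0.27 in C57 low-fat and of 0.74 in A/J high-fat and 0.17 in A/J low-fat. Of the 40 probes 5 had an unadjusted p under 0.05, against 418 of all probes, and the other 4 differences were negative, in Dnaja3 (-0.67), Cct3 (-0.55), Dnajc10 (-0.33) and Dnajb8 (-0.24).

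Within a strain no folding probe passed. In C57, 0 of 57 passed in limma against 0.196% of all probes, and 4 had an unadjusted p under 0.05, namely Dnajb4 and Dnaja2 with positive differences and Cct3 (-0.28) and Dnajc1 (-0.20) with negative ones. Of the 15 probes called over the whole array 12 were higher on high-fat, against 7 of 12 with no centring and 11 of 18 with quantile normalization. The Dnajb4 probe 2079 had the smallest p. Its weekly means ran from 0.47 through 0.81 to 1.08 in C57 high-fat, against 0.09, 0.37 and 0.77 in C57 low-fat, a difference of 0.37 (SE 0.09, adjusted p = 0.11) with high-fat above in 8 of 9 weeks. In A/J its difference was 0.09, and the strains' diet differences differed by 0.27 (SE 0.13, unadjusted p = 0.044, adjusted p = 1.00). The other probe of Dnajb4, 8602, showed none of this, with a mean of 0.12 in C57 high-fat and of 0.10 in C57 low-fat. In A/J, 0 of 57 passed in limma against 0.0262% of all probes, with 2 at an unadjusted p under 0.05 (Dnaja2 and Dnajc9). The diet difference differed between strains for 0 of 57 probes in limma, 1 of them at an unadjusted p under 0.05 (Dnajb4), against 0 of all probes and 204 at that p.

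The genes of the unfolded protein response did not stand out by diet. High-fat minus low-fat was -0.05 for Hspa5 and 0.16 for Hsp90b1, averaged over strains, and 0 of 8 ER probes passed in limma (none had an unadjusted p under 0.05). None of the 14 ER partner genes tested passed either, where 0.419% of all probes did. Among the cytosolic genes Dnajb4 (probe 2079, 0.23), Dnajb5 (-0.21) and Ppia (-0.20) reached an unadjusted p under 0.05 only. In single weeks the diets were compared over arrays in 20 pairs of strain and week, with at least 46 folding probes tested in each. None passed in limma, and 2 to 15 per pair had an unadjusted p under 0.05. The 15, in A/J week 4, were of 91 folding probes tested, against 2354 of all 12312 probes. Over all probes and pairs 110 tests passed (0.0458%), and A/J week 4 held most of them, with 0.853% of the probes tested there.

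**Figure D3:**
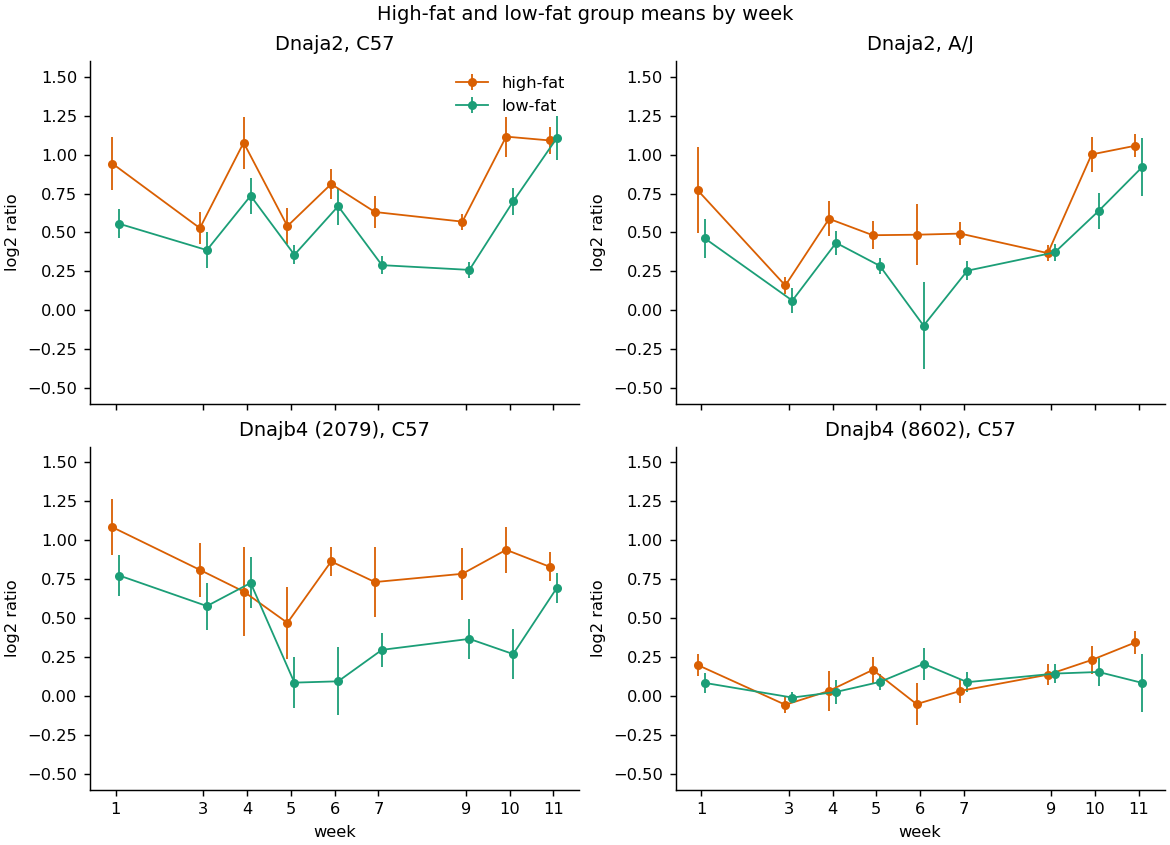
Group mean log2 ratio (point) with its standard error over arrays (bar) against week, for high-fat (orange) and low-fat (green). The upper panels give Dnaja2 in C57 and in A/J, where high-fat lay above low-fat in 8 of 9 weeks each, and the lower panels the probes 2079 and 8602 of Dnajb4 in C57, of which only the first shows a gap between diets.

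Across weeks 2 of 57 probes passed for a straight line, both lower at later weeks, against 4% of all probes (2.98% lower). The array's calls were 78 higher of 306, against 243 higher of 589 with quantile normalization. Hspa8, the constitutive cytosolic Hsp70, had means over the 4 arms of 0.16 at week 1, 0.01, 0.02 and -0.03 at weeks 3 to 5, -0.56, -0.37 and -0.25 at weeks 6, 7 and 9, and -0.83 and -0.95 at weeks 10 and 11. Its slope was -0.105 per week (SE 0.021, adjusted p = 0.031 in limma). Cct6b, a CCT subunit form known from testis, lay at -0.68, -0.44 and -0.57 at weeks 1, 3 and 4. It stood at -1.64, -1.49, -1.10 and -1.10 at weeks 5, 6, 7 and 9, and at -2.07 and -2.02 at weeks 10 and 11. The fall was thus not steady, with a step between weeks 4 and 5 and a partial rise after it. The slope of Cct6b was -0.143 per week (SE 0.035, adjusted p = 0.046 in limma). Both were lower in every week from week 6 on than in weeks 1 to 4. The Hspa8 slope was lost on dropping week 1, 3, 4, 7, 10 or 11 (adjusted p up to 0.0987), and the Cct6b slope on dropping any of these or week 6 (adjusted p up to 0.134). The labels give no hybridisation day, so week and any batch that follows it cannot be told apart. Which Hspa1a spots had values changed between weeks 4 and 5. Spot 9474 had values on 40 of 40 arrays at week 4 and on none at week 5. Spot 9475 had none at weeks 1, 3 and 4 and values on 36 of 38 arrays at week 5. The part of such a change in the slopes was not tested. The arrays with a value for Hspa8 fell to 25 at week 11, against 39 at week 1.

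Under the looser filter 1 folding probe passed, the CCT subunit Cct5, against 0.411% of all probes, and 22 had an unadjusted p under 0.05, 19 with a negative and 3 with a positive slope. Over all probes 2803 of 13128 had that p, a share close to that of the folding genes. Cct5 stood at 1.56 at week 1, 1.30 at week 4, 0.89 at week 5 and 0.07 at week 11 (slope -0.161 per week, adjusted p = 0.039). Pdia3 and Pdia4, disulfide isomerases of the ER, and the mitochondrial chaperones Hspd1 and Hspa9 had a similar shape and did not pass. Pdia3 stood at 2.37 at week 1, 2.27 at week 4, 0.84 at week 5 and 0.70 at week 11 (adjusted p = 0.076). Hspd1 stood at 1.47 at week 4, 0.01 at week 5 and -0.40 at week 11 (adjusted p = 0.067). These genes were measured on few arrays early. Cct5 had a value on 7, 1 and 17 arrays at weeks 1, 3 and 4, and Pdia3 on 18, 4 and 27, and no mean of the 4 arms could be formed at week 3. The part of this coverage in the slopes was not tested.

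**Figure D4:**
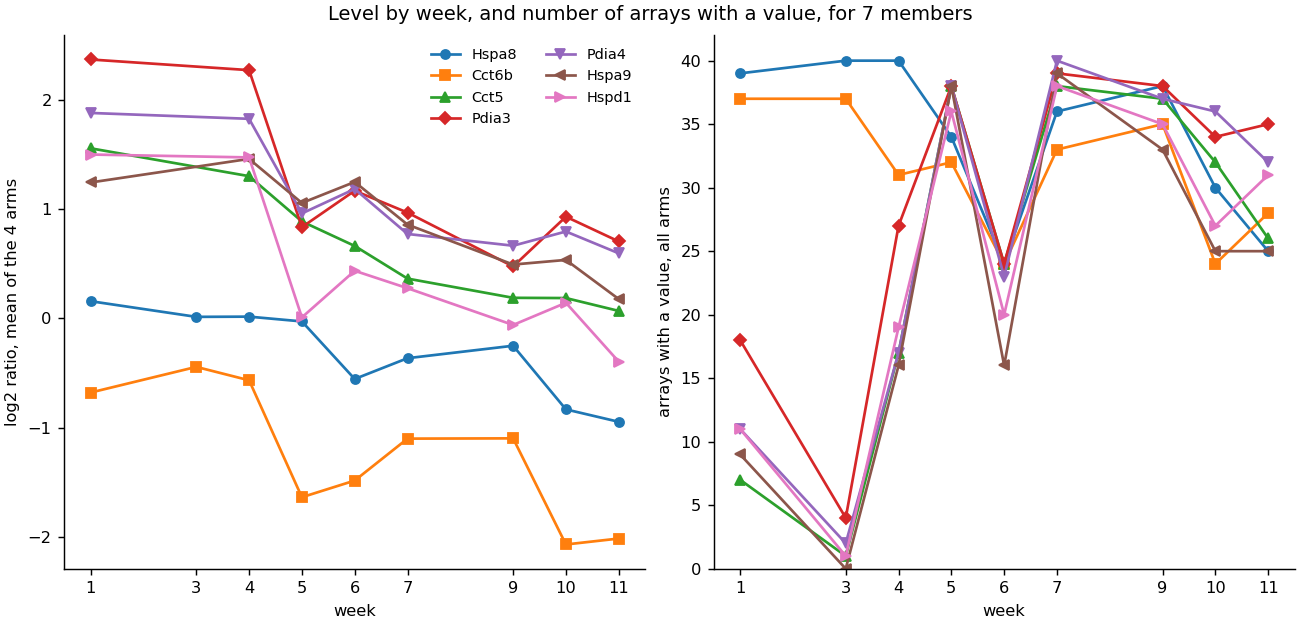
Left, the mean log2 ratio of the 4 arms against week for Hspa8, Cct6b, Cct5, Pdia3, Pdia4, Hspa9 and Hspd1. Right, the number of arrays with a value for each gene in that week. Hspa8 and Cct6b lay lower late than early, and the other 5 genes had values on few arrays at weeks 1 and 3.

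Against the pooled reference the folding probes lay mostly low, as did the probes called over the whole array. Each Hspa1a spot counts as a probe here, with 5 in the main test and 16 in all. Of 57 probes 44 differed from the array median, 11 above and 33 below, against 66.3% of all probes (25.1% above and 41.2% below). The median was -0.21 over the 57 probes and -0.10 over all probes. Under the looser filter 80 differed, 20 above and 60 below, with medians of -0.36 over the folding probes and -0.26 over all probes. Of all probes 71.2% differed there, 9344 in number, of which 2466 lay above. A level here is the ratio of liver over the pool for 1 gene, relative to the array's median ratio. It sets no gene's abundance against another's.

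The ER genes covered a wide range of ratios. Several disulfide isomerases and cyclophilin B were above the pool, with Pdia3 at 1.22 ± 0.71 (SD, 8 weeks), 2.32-fold over the pool, Pdia4 at 1.09 ± 0.51 (8 weeks), Ppib at 0.77 ± 0.35 (6 weeks) and Pdia6 at 0.30 ± 0.21 (9 weeks). Hspa5 was lowest at -1.05 ± 0.30 (9 weeks), followed by a Dnajc1 probe at -0.81, Hspa13 at -0.65, Dnajb9 at -0.63, the disulfide isomerase Pdia2, known from pancreas, at -0.62 and Fkbp9 at -0.61. A further isomerase, Pdia5, stood at -0.52. Hsp90b1 lay at -0.30 and Fkbp2 at -0.46. The Pdia3 level includes 2.37 at week 1 (18 of 39 arrays) and 2.27 at week 4 (27 of 40). In weeks 5 to 11 the Pdia3 means ran from 0.47 to 1.17. The Pdia4 level includes 1.88 at week 1 (11 of 39 arrays) and 1.83 at week 4 (17 of 40). In weeks 5 to 11 the Pdia4 means ran from 0.60 to 1.18. The Ppib level rests on weeks 5 to 11 only.

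In the mitochondrion Hspa9 (mortalin, the Hsp70 of the matrix) stood at 0.88 ± 0.45, Hspd1 (Hsp60) at 0.42 (adjusted p = 0.087) and Dnajc28 at 0.16. The probes of Dnaja3, a J-domain partner of Hspa9, stood at -0.60 and -0.18. Lowest of the cytosolic genes were a Cct4 probe at -1.51 (the other Cct4 probe was at -0.74), Hspa1a spots at -1.49, -1.40, -1.29 and -1.16, Cct6b at -1.23, the cyclophilin Ppid at -1.10 and Cct2 at -1.09. Ppia lay at -0.95. Highest were Cct5 at 0.65, the nuclear cyclophilin Ppie at 0.62, Dnajb3 at 0.61, the small heat shock gene Hspb2 at 0.60 and Dnaja2 at 0.59. The Cct5 level includes 1.56 at week 1 (7 of 39 arrays) and 1.30 at week 4 (17 of 40), against 0.07 to 0.89 in weeks 5 to 11. Hspa9 also had values on few arrays early, 9 of 39 at week 1 and 16 of 40 at week 4. Of the other CCT subunits Cct8 stood at 0.29, Cct3 at -0.21 and Cct7 at -0.26. Near the array median lay Hsph1 at 0.07, Hsp90aa1 at 0.04 and Dnajb1 at -0.00, while Hspa8 lay at -0.31, Fkbp5 at -0.40 and Dnaja1 at -0.43. Hsp90ab1, Hspb1, Dnajc3, Fkbp4 and Hspe1 were not analysed here.

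**Figure D5:**
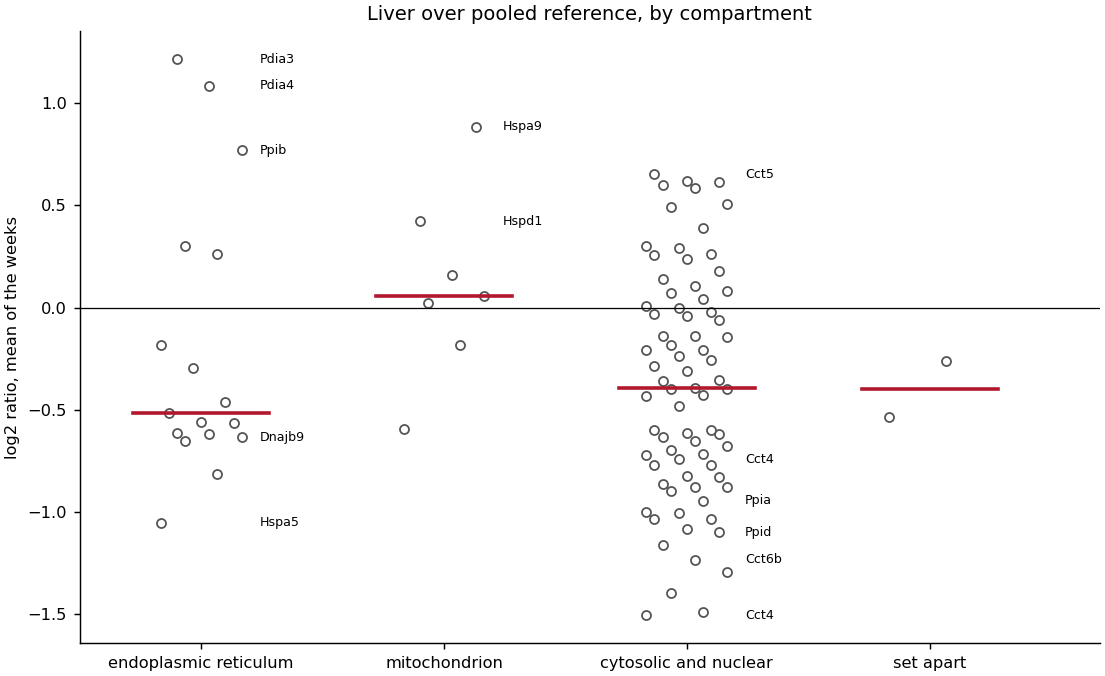
Mean log2 ratio of liver over the pooled reference for each probe of the looser filter (open circle), by compartment, with the median of the compartment as a red line. Pdia3, Pdia4 and Ppib lie at the top of the ER members and Hspa5 at the bottom. The means of Pdia3 and Pdia4 include higher values at weeks 1 and 4.

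Common movement within a compartment was described by correlations over the 36 group means with arm means removed. The median pairwise correlation was 0.0581 among 8 ER probes and 0.0148 among 39 cytosolic probes without Hspa1a, near the 0.0115 over all 7643 probes. It was higher, at 0.324, among the 4 mitochondrial probes, of which 2 read Dnaja3. The 5 tested Hspa1a spots, which read 1 gene, correlated at a median of 0.733. Where other genes had a pair of probes, these correlated at -0.0827 (Dnajb4), -0.0534 (Hspb11), 0.146 (Dnajc1), 0.194 (Ppih), 0.211 (Cct4) and 0.341 (Dnaja3). All these points share weeks and reference RNA, and the values are descriptions.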

How the data were processed

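The deposited values are ratios per probe on a linear scale, liver over reference, whose mean over the measured probes of an array is 1. The scale and direction were read from the values and the dye labels. Image analysis, background subtraction and the authors' normalization are not given in the sources used here. Of the deposited values 42.4% are empty, 0.251% are below 0 and 0.271% equal 0, and the signal behind a ratio is unknown, so precision rests on how many arrays were averaged. A log2 was taken of positive ratios with no pseudocount, and each array was centred on its median over the probes tested. An array had between 194 and 14920 measured probes (median 10767, and 5007 at week 0).

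In A/J high-fat mice 2 arrays repeated the values of another array and were dropped, leaving 433. Week 8 and 4 other arrays correlating below 0.15 with the median array were left out. A probe entered the tests with values on 70% or more of the arrays and on 3 or more of each group, and in the looser filter in all arms of at least 6 weeks. The fits used limma 3.58.1 (R 4.3.3) on 1 mean per group, with the 4 arms and a term for each week, and to the weekly mean of the 4 arms for the level and the straight line. Single weeks and week 0 were fitted on arrays. P-values were Benjamini-Hochberg adjusted over all probes tested, with a threshold of 0.05. The code was tested on simulated data.

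The family members, the compartments, the comparison and marker lists, the tests and the rule for naming genes were chosen with earlier results of these data known. The rule names every member past the threshold, the 3 highest and lowest over the reference in each compartment, and 30 well-known chaperones whatever their p. Symbols come from the array's gene table, in which 14711 of 14717 listed probes have 1 symbol, updated by Entrez identifier for 14416. Each setting tried as an alternative is given with its effect in the closing section.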

Additional observations from a re-analysis of the deposited data

Results flagged for a closer look

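The weekly means of the called genes were examined in each arm, 52 series of weeks in all, for a week that stood apart from the rest of its series by its distance to the nearest other week. Chance would flag about 1 in 20 such series, and 3 were found. Dnajc10 in C57 high-fat mice had a mean of -1.02 at week 6, below its other weeks. Hspa1a spot 9463 in A/J high-fat mice had a mean of -2.26 at week 1. Dnajb9 in A/J low-fat mice had a mean of -1.97 at week 1. Dropping any single week left the strain difference of Dnajc10 between -0.35 and -0.29 and that of Dnajb9 between 0.38 and 0.48, and both calls were kept, while the Hspa1a spot lost its call without week 1.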

How the results depend on the processing

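Alternatives named in the plan were no centring, quantile normalization, group medians, other probe filters, all 10 weeks with all arrays, averaging of consecutive arrays, a replicate block, single arrays as replicates, each diet alone and leaving out each week. Splits of the weeks, weeks 1 and 3 left out and means of Hspa1a spots were added after the data were seen. Counts are of folding probes called. For the strain difference 9 calls became 2 of 20 tested with all 10 weeks (Dnaja2 and Dnajb4), 16 with single arrays, 1 in weeks 1 to 5 alone, 3 in weeks 6 to 11 alone, 1 on low-fat alone and 3 on high-fat alone, and 4 (without week 3) to 9 on leaving out a week, with 5 without week 11. Hspa5 missed the threshold under quantile normalization, group medians, all 10 weeks and weeks 1 to 5 alone, at 0.26 to 0.42. Dnajc24 missed it under group medians, all 10 weeks and weeks 1 to 5, Dnajc12 under all 10 weeks, the looser filter and both splits of the weeks, and Hspb8 under quantile normalization, group medians, the looser filter, the replicate block and both splits. The Hspa1a spot missed it under the looser filter, the replicate block and weeks 6 to 11, Dnajc10 in weeks 1 to 5 alone, and Dnajb9, Dnajb4 and Dnaja2 in both splits. Calls were also gained. Ppia passed under quantile normalization, group medians, single arrays and without week 1, and Cct3 with single arrays. The 9 calls without week 6 included further Hspa1a spots and lacked Dnajc12 and Hspb8. For diet averaged over strains, 1 call became 0 with no centring and with all 10 weeks, 3 with single arrays, and 0 to 1 on leaving out a week. In C57 alone 0 became 3 and in A/J alone 0 became 1 with single arrays, and 0 to 1 and 0 to 0 on leaving out a week (the 1 without week 4, Dnajb4). The 44 levels became 12 of 20 tested with all 10 weeks, 80 with the looser and 24 of 32 with the stricter filter, and 37 to 42 on leaving out a week. Of the 2 slopes only that of Hspa8 was kept with group medians and with averaged consecutive arrays. The looser filter kept neither, and its 1 call was Cct5. Quantile normalization kept Hspa8, lost Cct6b and added Ppia, whose slope was positive. The slopes became 0 with all 10 weeks, the stricter filter, the replicate block, and weeks 1 and 3 left out, and 0 to 4 on leaving out a week. In single weeks 0 became 1 with no centring (Ppia in A/J week 4, -1.02, adjusted p = 0.033 in limma). In the comparisons over weeks, no direction of a called folding gene reversed under any of these alternatives. The smaller probe sets with all weeks and the stricter filter hold fewer members, and the cause of the other changes was not tested.

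Over all probes, diet averaged over strains had 32 calls, 228 with single arrays, 4 with all 10 weeks and 11 to 38 on leaving out a week. C57 diet had 15, 139, 2 and 6 to 19, and A/J diet 2, with 0 to 33 across settings. The strain difference had 599, against 1450 with single arrays, 127 with all 10 weeks, 160 in weeks 1 to 5 and 268 in weeks 6 to 11. The slope had 306, against 172 with no centring, 589 with quantile normalization, 54 with the looser filter, 23 with the replicate block, 2 with all 10 weeks and 0 to 677 on leaving out a week. The level had 5068, against 9344 with the looser filter, 2871 with the stricter and 1821 with all 10 weeks. Single weeks had 110 calls, against 43 with quantile normalization, 5 with averaged consecutive arrays and 7 with the replicate block.

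Replicate numbers are shared between diets. Over 159 same-numbered pairs the deviations correlated at a median of 0.00617 (lowest -0.574, 44 above 0.1). These correlations cannot tell whether same-numbered samples share more than a number, such as a hybridisation day. With the replicate block the strain difference had 8 calls and the straight line 0.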
